A study of Homo sapiens with 10 samples.

Results

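The clusters described here are 67 of the 31848 gene clusters measured in a poly(A) RNA-seq experiment on HEK293T cells, a human embryonic kidney line. They were chosen from their own values: the lowest of the 8 libraries with an activator had to lie at least 15% above the higher of the 2 guide-only libraries in CPM, which is the cluster's expected count scaled to a common library sum. A mean of at least 5 CPM and a mean transcript length of 700 to under 9000 nt were also required, and the 100 rows of highest mean TPM in that length range were left out. TPM is the deposited abundance per unit of transcript length. The terms on length, abundance and the top 100 left 10545 rows, and the 67 members were 0.635% of them. The mirrored condition, with both guide-only libraries at least 15% above the highest activator library, held in 58 of the same rows, or 0.55%.

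All cells were transfected with a lipid reagent. The groups were VP64, VPR, SAM and Suntag, each a catalytically dead Cas9 with an activation system given with a guide RNA against the fetal globin gene HBG1, and a Guide Only Control, whose labels do not state the guide's target, with 2 libraries each and 10 in all. The labels name no group with dead Cas9 lacking an activation domain, give no time after transfection and do not say whether the libraries of a group came from separate cultures. P-values thus reflect only how far these libraries differ within a group, which may be technical spread.

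Dead Cas9 binds DNA where its guide pairs and does not cut it. VP64 is a fused viral activation domain, VPR adds the activation domains of p65 and Rta to it, SAM brings in further activators by way of hairpins built into its guide, and Suntag carries a peptide array that binds many copies of an activator. Such systems are used to raise the gene that the guide addresses. The files list clusters by number and do not pair them with gene names, and none of the members' 204 transcript identifiers matched a gene name table used here. Of all 82960 identifiers in the files only 3 matched it, so the lack of names is not particular to the members. The members are therefore described by length, number of transcripts and level, and no role is given for any of them. HEK293T markers could not be checked for the same reason.

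Library sums ran from 3316534 to 7447949 expected counts. The mean fragment length, taken as transcript less effective length, was lower in every activator library (89.8 to 123 nt) than in the guide-only libraries (133 and 129 nt), so fragment length moved with the contrast that defines the members. Its part in the results was not tested; values on scales that take length into account are given below. Reads carry no strand, so genes that overlap, antisense ones included, cannot be told apart. More RNA per cell and more cells that hold it cannot be told apart either.

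The members were long by the rule and short within its range. Their median length was 1052 nt, against 2979 nt over the 10545 rows, and 63 of 67 lay below that second value. The rule was met by 28 of 372 rows of 700 to under 1000 nt (7.53%), 19 of 942 of 1000 to under 1500 nt (2.02%), 10 of 1321 of 1500 to under 2000 nt (0.757%), 6 of 2675 of 2000 to under 3000 nt (0.224%) and 4 of 5235 of 3000 nt or more (0.0764%). The share thus dropped at each step of length. Members also had more RNA per length, with a median of 54.3 TPM against 24.5 TPM over the 10545 rows, while their median of 39.2 CPM lay near the 34.8 CPM of those rows. A single transcript made up 17 of the 67 (25.4%), against 16.8% of the rows. Counts were whole in all 10 libraries, within 0.01, for 17 members (25.4%) and for 17.7% of the rows. The other 50 members had counts that were not whole in some library, and their levels are uncertain where reads fit more than 1 cluster.

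**Figure D1:**
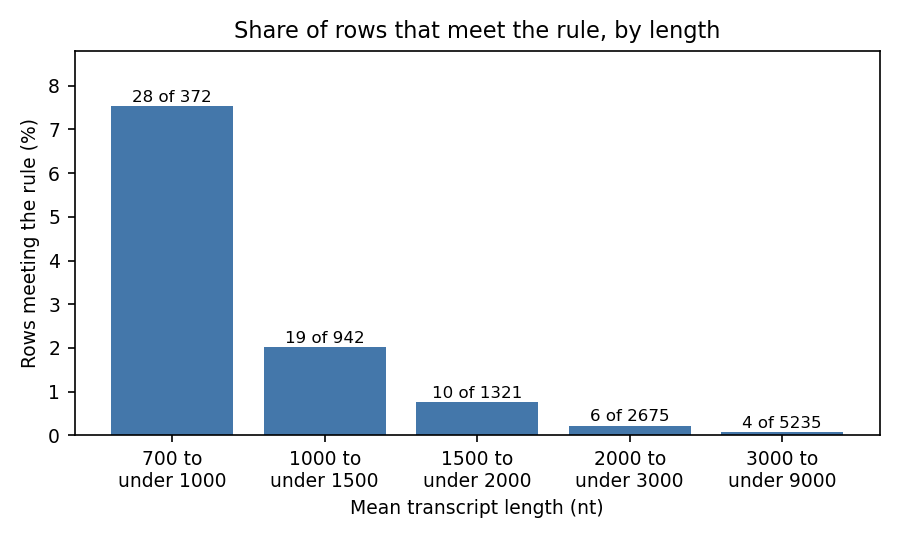
Share of rows that meet the rule (bars, %) by mean transcript length in nt; the label on each bar gives members of rows. The share was 7.53% at 700 to under 1000 nt and 0.0764% at 3000 nt or more.

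Summed over the members, the level was 2964 and 3108 CPM (VP64), 3526 and 3252 (VPR), 3162 and 3220 (SAM), 3122 and 3208 (Suntag), and 2248 and 2284 CPM in the guide-only control. VPR replicate 1 was the highest and VP64 replicate 1 the lowest activator library. These sums correspond to 0.304% ± 0.0102, 0.339% ± 0.0194, 0.319% ± 0.00409 and 0.317% ± 0.00609 of all counts in VP64, VPR, SAM and Suntag, against 0.227% ± 0.0025 in the control (SD, n = 2 each). On the TPM scale the ratio of the summed level to that of the control was 1.28 (VP64), 1.38 (VPR), 1.36 (SAM) and 1.33 (Suntag), and on the CPM scale 1.34, 1.495, 1.41 and 1.397. The gap to the control was fixed by the choice of members and is given without a test.

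Over the pooled activator libraries the ratio to the control had a median of 1.44 and ran from 1.26 to 3.07. The ratio of the lowest activator library to the higher control library had a median of 1.205 and reached 1.3 in 12 members, 1.4 in 4 and 1.5 in 1. The median fold between the 2 libraries of a group was 1.09 (VP64), 1.10 (VPR), 1.10 (SAM), 1.12 (Suntag) and 1.09 in the control over the 10545 rows. Over the members, whose choice favours libraries that lie close together, it was 1.07, 1.10, 1.07, 1.07 and 1.05. In 9 members the exact 95% Poisson interval of the pooled ratio reached below the required 15% excess, and it stayed above 1 in all 67. Intervals cover counting error only and are those of rows chosen for a high ratio. Just inside the threshold stood clusters of 1864, 1482 and 763 nt with ratios of 1.1503, 1.1521 and 1.1522, and just outside stood clusters of 3690, 1097 and 2066 nt with 1.148, 1.1473 and 1.1466.

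**Figure D2:**
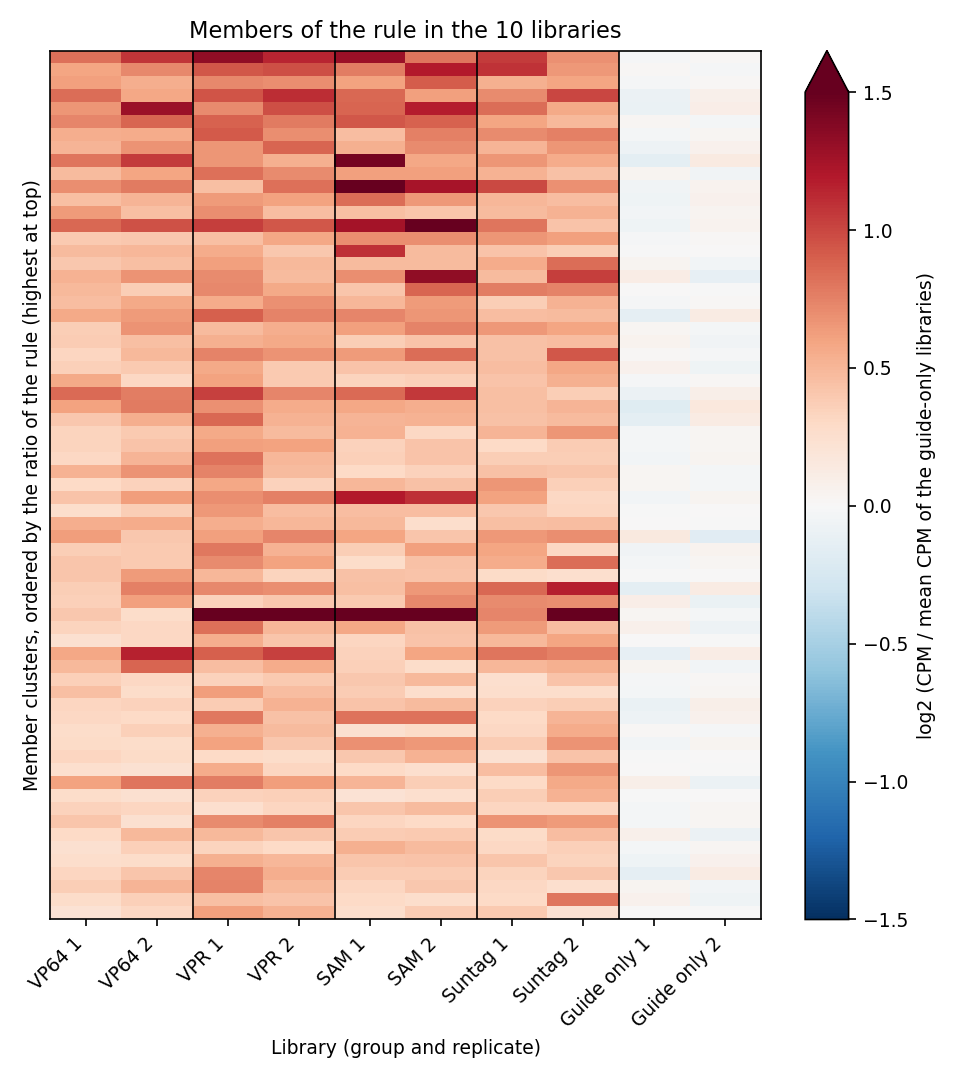
Each row is 1 of the 67 members and each column 1 library; the color gives log2 of the CPM over the mean CPM of the 2 guide-only libraries (values above 1.5 share the darkest color). Activator columns are red throughout by the choice of members, with library medians from 0.41 in VP64 replicate 1 to 0.65 in VPR replicate 1, and the member of 1445 nt is past 1.5 in both VPR, both SAM and 1 Suntag library.

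The 2 members with whole counts that ranked highest by this ratio are identified by number. Cluster 15576, of 5 transcripts and 879 nt, held 43 and 41 counts (VP64), 42 and 74 (VPR), 32 and 51 (SAM), 52 and 42 (Suntag), and 22 and 33 in the control. This was 8.03 and 12.4 CPM (VP64), 8.32 and 9.94 (VPR), 9.32 and 11.5 (SAM), 9.07 and 7.53 (Suntag), against 4.72 and 5.43 CPM in the control. The VP64 libraries lay furthest apart, and both SAM libraries lay above both Suntag libraries, while the other pairs of activators overlapped. Cluster 15016, of 5 transcripts and 970 nt, was at 8.03 and 9.04 CPM (VP64), 8.91 and 10.3 (VPR), 8.15 and 9.24 (SAM), 8.02 and 8.96 (Suntag), against 5.37 and 5.93 CPM in the control. Its 8 activator libraries formed a narrow band. The pooled ratio to the control was 1.82 (95% exact interval 1.37 to 2.47) for cluster 15576 and 1.57 (1.19 to 2.09) for cluster 15016. Log2 changes of cluster 15576 were 1.01 ± 0.27 (VP64), 0.92 ± 0.26 (VPR), 1.01 ± 0.27 (SAM) and 0.73 ± 0.27 (Suntag) (edgeR, SE), and that in VP64 was 1.34 without VP64 replicate 1 and 0.71 without replicate 2. With each library's trend on transcript length removed, the change in VPR was 0.58 for cluster 15576 and 0.53 for cluster 15016, against 0.92 and 0.85 without that step, and the change of cluster 15016 in Suntag was 0.41 against 0.61.

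The 6 highest ranked of the remaining members were 5 single-transcript clusters and 1 of 3 transcripts, all with counts that were not whole. The highest, of 1052 nt, stood at 52.1 and 61.5 CPM (VP64), 73.6 and 64.7 (VPR), 71.5 and 51.0 (SAM), 60.7 and 47.1 (Suntag), against 29.0 and 29.6 CPM in the control. Its lowest activator library, Suntag replicate 2, was 1.59 times the higher control library, and its pooled ratio was 2.04 (95% exact interval 1.81 to 2.30). A cluster of 742 nt had 40.0 and 43.7 CPM (VP64), 50.8 and 52.0 (VPR), 45.1 and 60.4 (SAM), 56.3 and 41.6 (Suntag), against 26.8 and 26.2 CPM in the control. SAM and Suntag each had 1 library above and 1 below both VPR libraries. A cluster of 927 nt had 52.1 and 49.4 CPM (VP64), 56.0 and 55.2 (VPR), 51.5 and 63.6 (SAM), 49.4 and 51.1 (Suntag), against 33.7 and 34.3 CPM in the control. Here SAM replicate 2 stood above the other activator libraries, which lay close together. The clusters of 981, 1307 and 989 nt followed, with pooled ratios of 1.81 (1.38 to 2.42), 1.70 (1.42 to 2.05) and 1.62 (1.45 to 1.81). The first of these was sparse, with 59 summed counts in the control.

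The 3 members of highest mean TPM were 905, 804 and 1127 nt long. A cluster of 2 transcripts and 905 nt, at a mean of 479 TPM, had 453 and 522 TPM (VP64), 612 and 505 (VPR), 492 and 496 (SAM), 465 and 476 (Suntag), against 376 and 398 TPM in the control. VPR replicate 1 stood above the rest. A cluster of 3 transcripts and 804 nt had 352 and 349 TPM (VP64), 411 and 392 (VPR), 336 and 359 (SAM), 381 and 472 (Suntag), against 275 and 286 TPM in the control. A cluster of 3 transcripts and 1127 nt had 330 and 318 TPM (VP64), 383 and 333 (VPR), 353 and 329 (SAM), 370 and 438 (Suntag), against 290 and 286 TPM in the control. In both of these Suntag replicate 2 was the highest library. The pooled ratios on the CPM scale were 1.38 (95% exact interval 1.304 to 1.45), 1.47 (1.38 to 1.58) and 1.32 (1.249 to 1.397). Across the 67 members the pooled ratio went down with mean TPM (Spearman's rho -0.47) and had a rho of 0.0043 with length. Both describe 67 members that share libraries and passed a common threshold, and neither is a test.

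The 4 members over 3000 nt, singled out after their values were seen, lie at the far end of the range from most of the others. The longest, of 3 transcripts and 5042 nt, had 51.9 and 50.7 CPM (VP64), 51.1 and 50.4 (VPR), 55.3 and 60.0 (SAM), 48.8 and 55.9 (Suntag), against 41.4 and 41.8 CPM in the control. Its log2 change was 0.37 ± 0.11 (VP64), 0.36 ± 0.10 (VPR), 0.45 ± 0.11 (SAM) and 0.36 ± 0.10 (Suntag) (edgeR, SE). A cluster of 3 transcripts and 3817 nt, with whole counts, had 14.0 and 13.3 CPM (VP64), 15.8 and 12.9 (VPR), 14.0 and 16.2 (SAM), 10.6 and 10.0 (Suntag), against 7.30 and 8.23 CPM in the control. Suntag was the lowest activator group there. The clusters of 4300 and 3458 nt had pooled ratios of 1.44 (95% exact interval 1.14 to 1.84) and 1.56 (1.11 to 2.22). The cluster of 3458 nt, with 20 and 21 counts in the control libraries, was the 1 member whose lowest activator library fell below the higher control library on the TPM scale, at 0.958 of it.

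Against the control, edgeR's fit gave the members a median log2 change of 0.50 (VP64), 0.68 (VPR), 0.47 (SAM) and 0.53 (Suntag), with -0.0022, -0.016, 0.0059 and 0.00081 over all 13241 clusters tested. All 4 changes rest on the same pair of guide-only libraries and are not independent. All rows of similar length had smaller medians: those of 700 to under 1000 nt, members included, had medians of 0.25, 0.38, 0.17 and 0.26 for VP64, VPR, SAM and Suntag, and those of 1500 nt or more had -0.03, -0.05, -0.03 and -0.03. With each library's trend on transcript length removed, the members' medians were 0.37 (VP64), 0.45 (VPR), 0.37 (SAM) and 0.41 (Suntag). For the 28 members under 1000 nt they were then 0.30, 0.35, 0.29 and 0.38, and for the 20 members of 1500 nt or more 0.51, 0.53, 0.50 and 0.47. The rule itself was met by 38 rows on the scale with the trend removed, of which 31 were among the 67, and by 38 rows on the deposited TPM, of which 33 were among them. On TPM, all 8 activator libraries exceeded both control libraries in 66 of the 67. TPM rests on the same counts as the rule, so this was largely set by the choice of members.

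**Figure D3:**
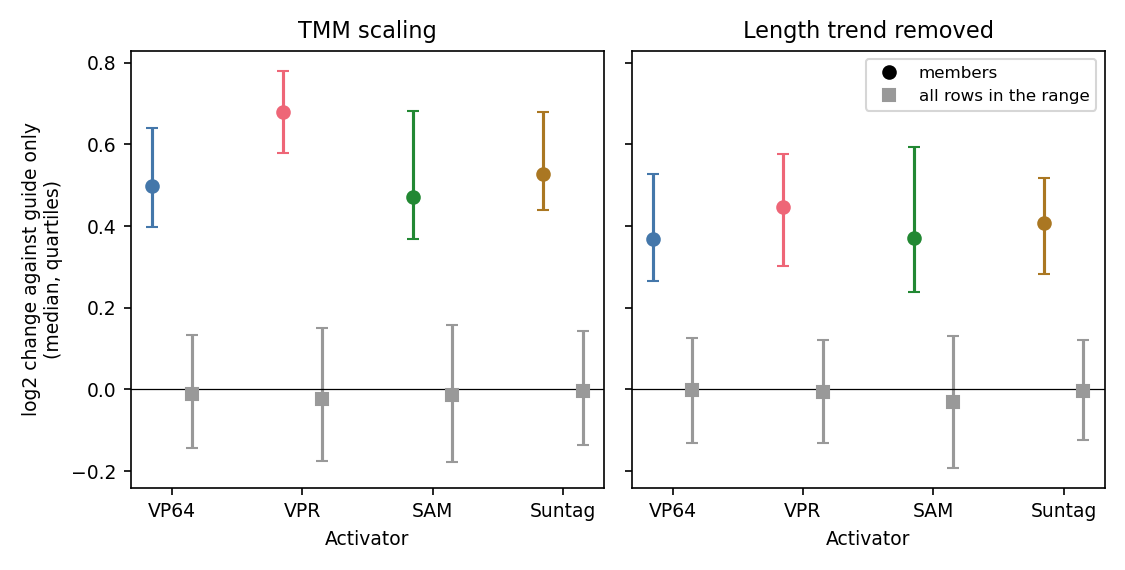
Median log2 change against the guide-only control (points) with quartiles (bars) for the 67 members (circles) and all 10545 rows of the range (squares), with TMM scaling at left and with each library's length trend removed at right. VPR stands highest at left at 0.68, and with the trend removed the 4 medians lie between 0.37 and 0.45.

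The rule did not compare the activators with each other, and differences between them were tested. It used the same 8 activator libraries, though, set a floor under each and favoured libraries that lie close together. The control libraries, which it also used, enter the shared estimate of spread. The members' p-values and shares are therefore not free of the choice, and beside those of all clusters they serve as a description. A test for any difference among the 4 activators called 3 of the 67 members (edgeR quasi-likelihood test, Benjamini-Hochberg adjusted p under 0.05), or 4.48%, against 3.93% of all 13241 clusters. The members' count was near this background, and it was 0 without VP64 replicate 1 or SAM replicate 1, 1 without VP64 replicate 2 or SAM replicate 2, and 7 without Suntag replicate 1. At an unadjusted p under 0.05 there were 17 members (25.4%), against 24.9% of all clusters. By pair, no member was called for VPR over VP64, where the share of all clusters called was 0.00755%, for Suntag over VP64 (0.234%) or for VPR over Suntag (0%). SAM over VP64 had 2 members called, both higher, with 4.3% of all clusters called, 1.53% higher and 2.77% lower. VPR over SAM had 1 member, higher, with 5.68% of all clusters, 3.56% higher and 2.11% lower. SAM over Suntag had 1 member, higher, with 1.72% of all clusters, 0.717% higher and 1% lower. In the 3 pairs with no member called by edgeR, DESeq2 also called 0, but it gave an adjusted p to only 2 members for VPR over VP64, 13 for Suntag over VP64 and 2 for VPR over Suntag. An unadjusted edgeR p under 0.05 was reached by 12 members (17.9%) for VPR over VP64, against 8.62% of all clusters. For Suntag over VP64 it was 7 (10.4%) against 14.8%, and for VPR over Suntag 14 (20.9%) against 13.3%. VPR over SAM had 22 (32.8%) against 23%, SAM over VP64 9 (13.4%) against 21.7%, and SAM over Suntag 12 (17.9%) against 18.5%. A log2 difference between 2 activators had a median SE of 0.12 to 0.14 over the members, and a lack of calls does not show that the activators act alike. The shares of all clusters beside these counts are from the main fit and were not taken with a library left out. Some of these counts moved when 1 library was left out: VPR over SAM had 6 members without VPR replicate 2 and 5 without either Suntag library, and without Suntag replicate 1 there were 2 for Suntag over VP64, 4 for VPR over Suntag and 4 for SAM over Suntag. Without either Suntag library there was 1 for VPR over VP64.

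The clearest difference among activators was in a member of 4 transcripts and 1445 nt, whose counts were not whole. It held 98.7 and 122 counts (VPR), 64 and 59.4 (SAM), 38.2 and 70 (Suntag), 28.4 and 16 (VP64), and 19 and 23.8 in the control. The level was 17.9 ± 2.26 CPM (VPR), 16.0 ± 3.71 (SAM), 9.60 ± 4.16 (Suntag) and 5.07 ± 0.344 (VP64), against 3.999 ± 0.112 CPM in the control (SD, n = 2 each). Both VPR and both SAM libraries stood above both Suntag libraries, with Suntag replicate 1 close to VP64. Any difference among the 4 had edgeR adjusted p = 0.0106. SAM exceeded VP64 by a log2 difference of 1.54 ± 0.30 (SE, edgeR adjusted p = 0.013), and this call ended without VP64 replicate 1 or 2 or without SAM replicate 1 (adjusted p = 0.144, 0.0834 and 0.115). DESeq2 gave this member no adjusted p. The log2 difference of VPR from VP64 was 1.83 ± 0.28 with edgeR adjusted p = 0.056, which missed the threshold in a comparison where 1 cluster passed it. Suntag against VP64 gave 0.88 ± 0.31 (edgeR adjusted p = 0.194). Its pooled ratio to the control, 3.07 (95% exact interval 2.24 to 4.29), was the highest of the 67, while its rank by the rule was 44, set by its lowest activator library, VP64 replicate 2.

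A member of 4 transcripts and 1817 nt, whose counts were not whole, was highest in SAM. It had 79.6 and 74.7 CPM (SAM), 56.6 and 59.1 (VPR), 53.2 and 43.2 (Suntag), 47.1 and 54.0 (VP64), and 34.0 and 35.9 CPM in the control. Both SAM libraries lay above all others. They lay above all other activator libraries in 8 of the 67 members (11.9%) and in 17.7% of the 10545 rows. SAM exceeded Suntag by a log2 difference of 0.61 ± 0.12 (SE, edgeR adjusted p = 0.0241) and VP64 by 0.53 ± 0.12 (0.0288), and the difference from VPR, which was -0.31 ± 0.12 as VPR over SAM, missed the threshold (edgeR adjusted p = 0.129). The call against VP64 ended without any 1 of the VP64 and SAM libraries (edgeR adjusted p from 0.0834 to 0.264) and with DESeq2 (adjusted p = 0.0549). The call against Suntag ended without SAM replicate 1 or 2 or Suntag replicate 2 (edgeR adjusted p = 0.192, 0.114 and 0.105) and with the 2 groups fitted alone (0.0657), and DESeq2 gave it no adjusted p.

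The member of 804 nt described above had 149 and 139 CPM (VPR) against 111 and 124 CPM (SAM), a log2 difference of 0.39 ± 0.10 (SE, edgeR adjusted p = 0.033). Counts of this member were not whole. For any difference among the 4 activators its edgeR adjusted p was 0.0497, just under the threshold. The means were 144 ± 7.34 CPM (VPR), 117 ± 9.27 (SAM), 149 ± 20.2 (Suntag) and 121 ± 1.08 (VP64), against 91.6 ± 2.32 CPM in the control (SD, n = 2 each). With the length trend removed the difference of VPR from SAM was 0.19 (edgeR adjusted p = 0.36), and the call also ended without VP64 replicate 1 or 2, VPR replicate 1, or SAM replicate 1 or 2 (adjusted p = 0.0539, 0.0534, 0.195, 0.269 and 0.0785). The abundant member of 1127 nt came next in this ranking and did not pass (edgeR adjusted p = 0.0752).

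**Figure D4:**
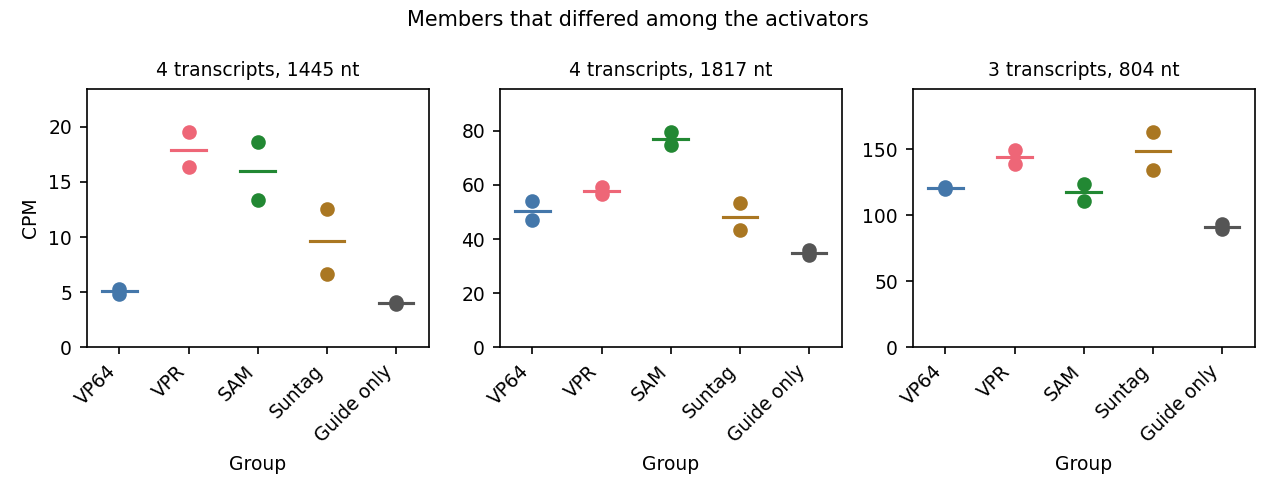
CPM of the 3 members that differed among the activators, with 1 point per library and a line at the mean of the 2 libraries of a group. VPR and SAM lead in the cluster of 1445 nt (17.9 and 16.0 CPM), SAM in that of 1817 nt (77.1 CPM), and VPR and Suntag in that of 804 nt (144 and 149 CPM).

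As a list, the members were somewhat higher in VPR than in the other activators. The median log2 difference of VPR was 0.16 over VP64, 0.20 over SAM and 0.12 over Suntag, with medians of 0.0021, -0.0041 and -0.0096 over all clusters tested, and VPR was above in 57, 51 and 50 of 67 members, against 50.6%, 49.4% and 48.5% of all clusters. The members' median was -0.01 for SAM over Suntag and 0.0013 for Suntag over VP64. All 1314 rows of the range under 1500 nt had medians of 0.13, 0.18 and 0.10 in the same 3 comparisons, close to those of the 67 members. Of the members, 20 were 1500 nt or longer. Against the control these 20 had medians of 0.63 (VPR), 0.54 (VP64), 0.51 (SAM) and 0.49 (Suntag). All rows of that length had -0.05, -0.03, -0.03 and -0.03 in the same order. With the length trend removed, the medians of all 67 members in the 3 comparisons were 0.06, 0.08 and 0.05, and VPR was above in 48, 39 and 41 members. With library sums in place of TMM factors the median of all clusters was -0.11 for VPR against SAM and the members' median was 0.10, and VPR was above VP64, SAM and Suntag in 54, 41 and 45 members. VPR had the highest group mean CPM in 28 members (41.8%), SAM in 22 (32.8%), Suntag in 12 (17.9%) and VP64 in 5 (7.46%), against 14.2%, 42.3%, 24.8% and 18.7% of the 10545 rows. These CPM carry no TMM factors, so the shift of all clusters with library sums, -0.11 for VPR against SAM, is in them. Under 1500 nt VPR was highest in 23 of 47 members (48.9%) and in 38.3% of rows. At 1500 nt or more SAM was highest in 11 of 20 members (55%) and in 45.2% of rows, and VPR in 5 members (25%) and in 10.8% of rows.

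Transcript length within a cluster, which RSEM weights by the abundance of its isoforms, was not used across groups by the rule. Of the 50 members with several transcripts, 1 was shorter in all 8 activator libraries than in both control libraries (2%) and 1 was longer (2%), against 1.99% and 2.36% of 8776 such rows in the range. The shorter one averaged 700.1 nt in the activator libraries and 726 nt in the control, and the longer one 2631 and 2584 nt. The median shift over the members was 0.065 nt, with 48 members shifted in neither direction by that rule.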

How the data were processed

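The members and lists were chosen with earlier results of these data known. Per the submitters' processing notes, the authors made the tables with RSEM 1.2.1 on hg19, and which transcript annotation they used is not given here. The deposited expected counts are RSEM's estimated counts, which need not be whole, and the deposited TPM values are abundances adjusted by effective length. Lengths in nt are as in the authors' tables. Per the labels' protocols, random hexamers primed the cDNA and libraries were made by tagmentation.

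CPM for the rule used unrounded expected counts over library sums of 3316534 to 7447949. For tests, expected counts were rounded. edgeR 4.0.16 (R 4.3.3) used filterByExpr, which kept 13241 clusters and all 67 members, TMM factors and quasi-likelihood F tests from a single fit over 5 groups with 5 residual degrees of freedom. Benjamini-Hochberg adjustment ran over all clusters within each comparison, with a threshold of 0.05. SE is the log2 change over the square root of F. The contrasts with the control were used by the rule and are given without tests. Pooled ratios carry exact 95% intervals from summed counts.

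Described members were the first 2 by the rule's ratio with whole counts, named by number, the 6 highest ranked others, the 3 of highest mean TPM, the 4 with the lowest p among the activators and the 3 rows on each side of the threshold. Alternatives were RLE factors, library sums, DESeq2 1.42.0, no filter, compared groups alone, a replicate block, each library left out, an effective length offset and a loess trend on length (span 0.3) removed.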

Additional observations from a re-analysis of the deposited data

Results flagged for a closer look

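In 3 members the rise over the same control differed between activators by edgeR's quasi-likelihood test. For any difference among the 4 activators, the cluster of 804 nt was just under the threshold (edgeR adjusted p = 0.0497). The log2 difference was 1.54 for SAM against VP64 in the cluster of 1445 nt (adjusted p = 0.013), 0.61 for SAM against Suntag in the cluster of 1817 nt (adjusted p = 0.0241), and 0.39 for VPR against SAM in the cluster of 804 nt (adjusted p = 0.033). Of all clusters tested, 3.93% differed among the 4 activators, and each of the 3 calls ended in some fits that left out 1 library. The call in the cluster of 1817 nt also ended with the 2 groups fitted alone (edgeR adjusted p = 0.0657), and that in the cluster of 804 nt with the length trend removed (edgeR adjusted p = 0.36).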

How the results depend on the processing

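The number of members depended on the rule's terms: 22 with an excess of 25%, 465 with no minimum excess, 110 with a mean of at least 1 CPM, and 38 both on deposited TPM and with the length trend removed. Without 1 library it ran from 70 to 277, and it was 177 without control replicate 1, 277 without control replicate 2 and 107 without Suntag replicate 2. Leaving out a library can only ease the ratio term, so a larger number was to be had by construction. All 67 members met the rule in each run that left out 1 library. The ratio term was bound to hold there for the same reason, so this does not measure stability. Members differing among the 4 activators numbered 11 with no filter on low counts and 0 to 7 without 1 library. Against 3 in the main fit, the number was 2 with RLE factors, the compared groups alone, the effective length offset and the length trend removed. It was also 2 with DESeq2, of the 34 members to which that gave an adjusted p. With no filter the pairs had 1 (VPR over VP64), 1 (Suntag over VP64), 10 (VPR over SAM), 5 (VPR over Suntag) and 4 (SAM over Suntag). With the compared groups alone there were 1 (VPR over VP64), 3 (VPR over SAM) and 0 (SAM over Suntag). DESeq2 gave 0 (SAM over VP64) and 2 (VPR over SAM), of the 34 and 35 members to which it gave an adjusted p. The 1 it gave for SAM over Suntag, of 20 such members, is not the member called by edgeR, which had no DESeq2 adjusted p. With the effective length offset there were 2 (VPR over SAM), and with the length trend removed 0 (VPR over SAM) and 2 (SAM over Suntag). Without 1 library the ranges were 0 to 1 (VPR over VP64), 0 to 2 (SAM over VP64), 0 to 2 (Suntag over VP64), 0 to 6 (VPR over SAM), 0 to 4 (VPR over Suntag) and 0 to 4 (SAM over Suntag). Shares of all clusters called were taken for the main fit alone. The numbers in the other fits can thus not be read as a trait of the members. The cause was not tested.

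The members' median log2 change against the control, once the length trend was taken out, was 0.37 (VP64), 0.45 (VPR), 0.37 (SAM) and 0.41 (Suntag). With library sums it was 0.44 (VP64), 0.60 (VPR), 0.50 (SAM) and 0.49 (Suntag). The effective length offset gave 0.49 (VP64), 0.66 (VPR), 0.44 (SAM) and 0.50 (Suntag). With that offset all rows of 700 to under 1000 nt still had medians of 0.22, 0.36, 0.14 and 0.20 in the same order. Suntag also had 0.524 with RLE factors, 0.531 with the compared groups alone and 0.524 with the replicate block. Without 1 library the medians ran from 0.46 to 0.56 (VP64), 0.60 to 0.74 (VPR), 0.44 to 0.48 (SAM) and 0.53 to 0.55 (Suntag). Replicate numbers did not pair the libraries (correlations of deviations from -0.067 to 0.062). The replicate block gave 2 members differing among activators, against 3 without it, and left the numbers for the 6 pairs at 0, 2, 0, 1, 0 and 1.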
